A study of Mus musculus with 9 samples.

Results

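Open chromatin was examined at the 7 genes of the mouse that encode cyclin-dependent kinase inhibitors, which are Cdkn1a, Cdkn1b, Cdkn1c, Cdkn2a, Cdkn2b, Cdkn2c and Cdkn2d. They are 7 of the 21887 protein-coding genes of the RefSeq table of assembly GRCm38.p6, the assembly behind mm10. All accessible regions, called peaks, that lay in the span of each gene or within 20 kb of it were taken from 4 lists, 1 for each retroviral vector of the study. These windows held 62 of the 170976 peaks of the mi8 list, 52 of 111510 in OE, 54 of 140735 in LMP8 and 73 of 170103 in HP109. The group was chosen by biological role and on the measured number of OE peaks at Cdkn1a, known from earlier work on these lists, so those peaks are described here and nothing is tested or inferred from them.

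Cyclin-dependent kinases drive a cell through its division cycle by phosphorylating the retinoblastoma protein, which then releases E2F transcription factors. The Cip/Kip inhibitors, p21 from Cdkn1a, p27 from Cdkn1b and p57 from Cdkn1c, bind complexes of cyclin and kinase, whereas the INK4 inhibitors, p16 from Cdkn2a, p15 from Cdkn2b, p18 from Cdkn2c and p19 from Cdkn2d, bind the kinases that pair with D-type cyclins. Cdkn2a also encodes Arf, an unrelated protein that stabilises p53, and the neighbouring Cdkn2a and Cdkn2b genes are a classic target of Polycomb repression. Pcgf6, the gene manipulated in this study, encodes the defining subunit of a Polycomb complex, PRC1.6. In myeloid cells, leaving the cell cycle accompanies terminal differentiation, and Cdkn1a is among the best known targets of p53.

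The cells were primary dendritic cells that had been cultured from C57Bl/6 bone marrow for 9 days with GM-CSF at 20 ng/mL; the age of the mice was not stated. On day 2 every culture received a retrovirus: mi8, the control for overexpression; OE, which overexpresses Pcgf6; LMP8, the control for knockdown; or HP109, which knocks Pcgf6 down. Sorting kept cells positive for both CD11c and the human CD8 reporter, so each of the 4 groups, controls included, consisted of transduced cells. ATAC-seq, in which a transposase cuts and tags open DNA, was run on 2 libraries per vector, and 1 input library served as the background for all 4. Whether the paired libraries came from separate mice or cultures is not stated, and each direction of the manipulation rests on 1 construct.

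A single peak list stood for both libraries of a vector, so no value below carries a replicate error and no test between vectors was possible. Each peak had a fold, its read pileup at the summit over the local background, and a −log10 q, which states how far the summit rose above that background after correction for multiple testing. Both are the authors' values and depend on depth. The smallest background in a list, which follows its depth, was 1.95 reads in mi8 and 2.00 in OE but 1.42 in LMP8 and 1.35 in HP109. Values are therefore set side by side across lists as descriptions, and the order of peaks is read only within a list. Of 10 dendritic cell marker genes, 10 had a peak at a gene start in mi8, LMP8 and HP109 and 8 in OE, where Zbtb46 and Ciita had none. Of 6 lymphoid markers, 1, 0, 1 and 2 had such a peak in mi8, OE, LMP8 and HP109, and of 6 macrophage markers 6, 5, 6 and 6 did. Granulocyte and mast cell markers had 3, 2, 3 and 4 of 6, with Mpo and Ngp bare in every list, and erythroid markers had 3, 2, 3 and 3 of 4, with Gata1 bare in every list. What part other cells in the sort had in any result was not tested.

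The DNA just before the starts of these genes shows how differently they are built, and the sequences of those to which the results return are given here from RefSeq (GRCm38.p6). RefSeq promoter entries were found for 9 starts of 6 of the 7 genes, with none for Cdkn1c. Each line is the 250 bases before a start, 5′ to 3′ on the gene's strand. Capitals mark letters found by a search of both strands. They are CATG, 6 bases of any kind and CATG again, the core of a p53-type site; GGCGGGA, an E2F-type site; and GGGCGG, an Sp1-type box, which can overlap the E2F-type site. The first start of Cdkn1a is chr17:29090729-29090978 (+ strand), the second start of Cdkn1a is chr17:29093519-29093768 (+ strand), the first start of Cdkn2a, that of Arf, is chr4:89294620-89294869 (− strand), the second start of Cdkn2a, that of p16, is chr4:89282193-89282442 (− strand), the first start of Cdkn2c is chr4:109666757-109667006 (− strand) and the start of Cdkn2d is chr9:21291210-21291459 (− strand).
Cdkn1a first start: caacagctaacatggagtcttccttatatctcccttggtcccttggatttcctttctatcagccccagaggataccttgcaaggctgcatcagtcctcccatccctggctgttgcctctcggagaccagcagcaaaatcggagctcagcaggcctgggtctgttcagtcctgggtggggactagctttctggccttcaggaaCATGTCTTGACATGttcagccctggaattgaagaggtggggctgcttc
Cdkn1a second start: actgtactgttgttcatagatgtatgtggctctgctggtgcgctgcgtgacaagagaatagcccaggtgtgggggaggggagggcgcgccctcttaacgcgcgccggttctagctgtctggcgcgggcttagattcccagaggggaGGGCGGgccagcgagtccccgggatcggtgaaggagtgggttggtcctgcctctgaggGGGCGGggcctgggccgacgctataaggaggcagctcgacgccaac
Cdkn2a first start: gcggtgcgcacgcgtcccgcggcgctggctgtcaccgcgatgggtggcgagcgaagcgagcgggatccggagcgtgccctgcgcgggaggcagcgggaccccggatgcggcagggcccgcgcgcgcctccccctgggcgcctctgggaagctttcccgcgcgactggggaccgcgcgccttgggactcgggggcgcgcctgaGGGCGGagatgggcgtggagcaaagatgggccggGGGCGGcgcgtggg
Cdkn2a second start: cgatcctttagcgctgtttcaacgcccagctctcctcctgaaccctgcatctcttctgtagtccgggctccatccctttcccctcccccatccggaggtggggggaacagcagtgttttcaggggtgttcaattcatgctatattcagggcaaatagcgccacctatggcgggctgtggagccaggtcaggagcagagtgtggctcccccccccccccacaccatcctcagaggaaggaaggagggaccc
Cdkn2c first start: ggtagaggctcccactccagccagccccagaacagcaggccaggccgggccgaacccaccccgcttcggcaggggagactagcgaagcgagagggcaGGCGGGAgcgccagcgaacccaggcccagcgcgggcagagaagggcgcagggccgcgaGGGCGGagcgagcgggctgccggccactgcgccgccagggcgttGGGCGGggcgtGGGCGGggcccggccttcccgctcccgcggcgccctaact
Cdkn2d start: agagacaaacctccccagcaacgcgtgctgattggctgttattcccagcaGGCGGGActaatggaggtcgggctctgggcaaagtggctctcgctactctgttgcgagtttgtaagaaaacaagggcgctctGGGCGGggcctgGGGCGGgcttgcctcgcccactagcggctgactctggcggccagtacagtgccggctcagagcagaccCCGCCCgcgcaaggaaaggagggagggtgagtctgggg

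The p53-type letters in the first Cdkn1a sequence begin 48 bases before the start, at chr17:29090931-29090944, and were covered by a peak in all 4 lists. Among 21263 RefSeq starts of protein-coding genes, with windows from 250 bases before to 50 after, 0.701% hold these letters, and 1 of the 9 starts here did. The E2F-type letters stood before Cdkn2c (153 bases) and Cdkn2d (200 bases), 2 of 9 starts against 14.9% of all, and Sp1-type boxes stood at 7 of 9 starts against 46.2% of all. A CACGTG E-box occurred at 1 of the 9, the second start of Cdkn2c, against 7.84% of all starts. These are matches of letters, not shown binding sites. In base composition the Cdkn1a starts were far apart: the first had 54.7% G and C and a CpG ratio, observed over expected, of 0.0892, while the second had 64.7% and 0.786. The Arf start of Cdkn2a was the richest in G and C of the 9, at 77% with a CpG ratio of 1.04, and the p16 start had 60.3% and 0.442. Over all starts the medians were 56.3% and 0.567.

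Every one of the 7 genes had a peak within 1000 bp of its start in all 4 lists. Among all protein-coding genes a start peak was present for 63.8% in mi8, 57.8% in OE, 61.7% in LMP8 and 63.2% in HP109, and for 57.3% in all 4 lists. Counting the second starts of Cdkn1a, Cdkn2a and Cdkn2c, and the upper end of Cdkn1c, whose start is not in the table used, 10 of 10 positions carried a peak in all 4 lists. So, with no minimum strength set, the presence of a start peak differed between a Pcgf6 vector and its control at none of them. Over all genes 0.146% had a start peak in OE and none in mi8, 6.17% the reverse, 2.22% one in HP109 and none in LMP8, and 0.704% the reverse.

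The strength of those start peaks covered a wide range, and the same genes stood at either end of it in each list. Cdkn2d, which encodes p19, had the strongest, with a −log10 q of 135.9 in mi8, 128.7 in OE, 66.3 in LMP8 and 154.5 in HP109. That placed it at the 99.9th percentile of all peaks in mi8, 99.5th in OE, 98.5th in LMP8 and 99.9th in HP109. Cdkn1b, which encodes p27, came next within each list, at 92.8, 94.0, 57.5 and 102.0 in the same order. At the weak end stood the first start of Cdkn1a, at 7.53, 10.4, 2.61 and 3.65, and the p16 start of Cdkn2a, at 11.3, 2.37, 6.90 and 7.81. With a minimum −log10 q of 5 these were the ones lost: 8 of 10 positions still had a peak in all 4 lists. All peaks within 1000 bp of any start had a median −log10 q of 32.1 in mi8, 31.4 in OE, 22.0 in LMP8 and 31.1 in HP109. Of the 10 positions 8, 6, 8 and 8 lay above it. The 2 sides are not like for like, since that median takes in weaker side peaks. Each position instead has 1 peak, the one over the start or else the strongest. The wide Cdkn2c peak also counts at 2 positions in mi8, OE and LMP8, so nothing is read from these counts.

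**Figure D1:**
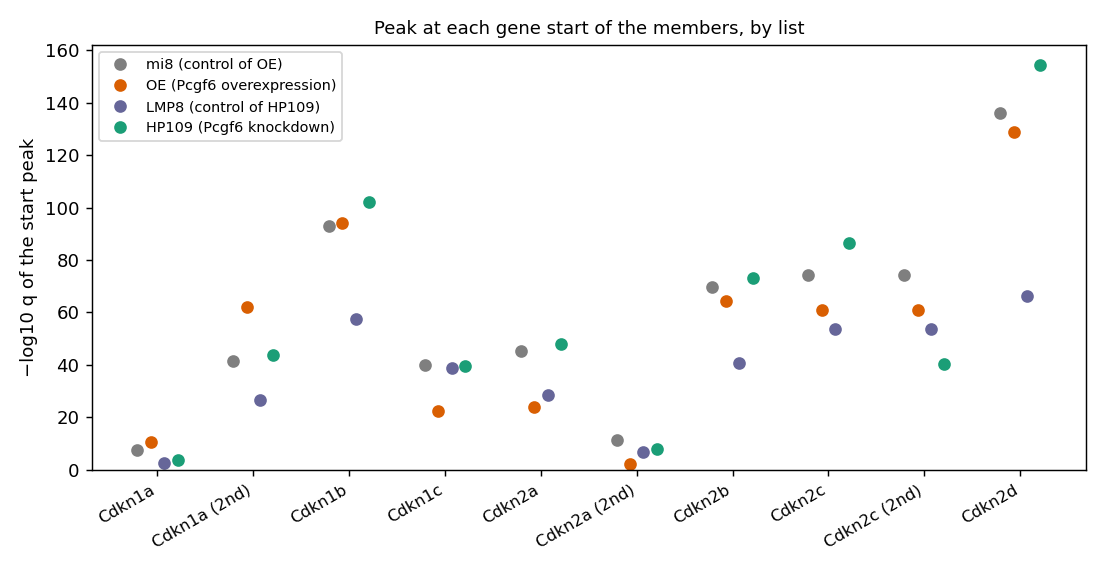
The −log10 q (vertical axis) of the peak at each gene start of the 7 inhibitor genes, with 1 point for each of the 4 lists; "2nd" is the second start in the RefSeq table, and there are no replicates. Cdkn2d and Cdkn1b stand highest in all 4 lists, and the first start of Cdkn1a and the second of Cdkn2a stand lowest.

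Numbers of peaks around each gene differed between lists, whereas the presence of a start peak did not. Cdkn1a had 12 peaks in mi8, 16 in OE, 10 in LMP8 and 12 in HP109. It and Cdkn2b, with 5, 6, 4 and 7, were the genes with more peaks in OE than in mi8. At Cdkn2b the order turned when overlapping peaks were merged, with 4 regions in OE and 5 in mi8, because OE had the Arf start in 3 pieces. The other genes had fewer in OE: Cdkn1b had 11, 8, 11 and 13, Cdkn1c 11, 5, 7 and 12, Cdkn2a 12, 10, 10 and 18, Cdkn2c 9, 8, 9 and 11, and Cdkn2d 7, 5, 7 and 7. Across all protein-coding genes the median number was 8 in mi8, 5 in OE, 6 in LMP8 and 8 in HP109, so the OE list, the shortest, was generally poorer, and the medians over the 7 genes were 11, 8, 9 and 12. The windows of Cdkn2a and Cdkn2b overlap, since the genes lie 11.7 kb apart, and their shared peaks are counted in both genes but once in every total.

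**Figure D2:**
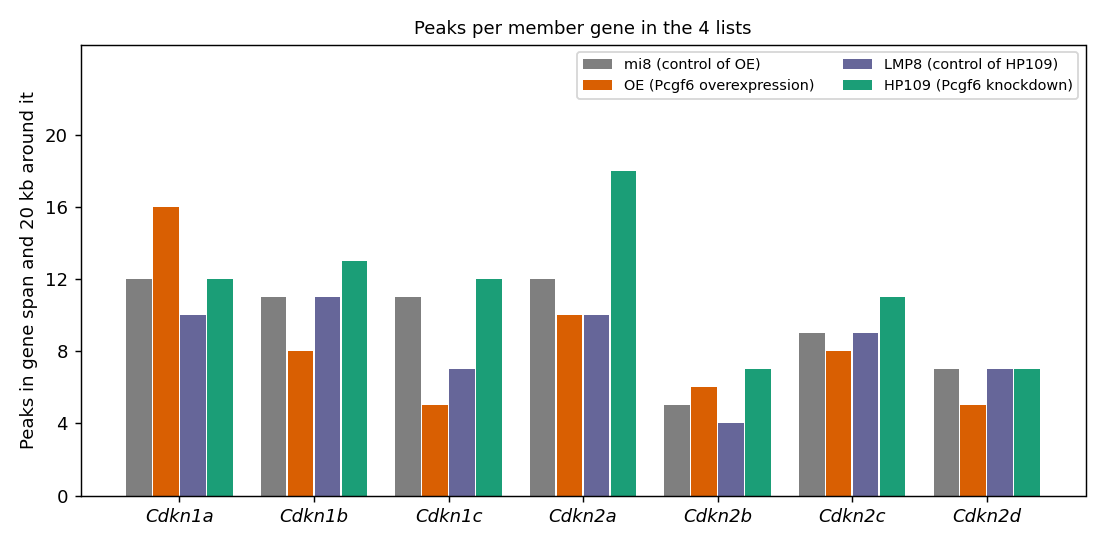
Number of peaks in the span of each gene and 20 kb on either side (vertical axis), with 1 bar for each list. The OE bar of Cdkn1a, at 16, and the HP109 bar of Cdkn2a, at 18, are the tallest.

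Cdkn1a (chr17:29090979-29100722, + strand) encodes p21, which halts the cycle after DNA damage. In mi8, LMP8 and HP109 its span held peaks at the first start and a group around the second start, and nothing further down. At the second start, which lies 2.79 kb into the gene, the summit peak had a −log10 q of 41.3 in mi8, 62.0 in OE, 26.6 in LMP8 and 43.8 in HP109, and its summit pileup was 64, 83, 39 and 59 reads. The OE list had there a single unbroken peak of 2373 bp (chr17:29093418-29095790), where mi8 and HP109 each had 3 separate peaks and LMP8 had 4. Over that whole stretch the strongest peak had 52.6 in mi8, 62.0 in OE, 34.7 in LMP8 and 53.3 in HP109. The OE value was thus the highest of the 4, by less than at the start itself for mi8, LMP8 and HP109. Its interval covered what the other lists had as separate peaks.

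Besides this, OE had 9 peaks in the window that overlapped no peak of any other list, 1 before the second start and 8 after it. The first (chr17:29091639-29091877) had its summit 0.804 kb after the first start, with a fold of 4.39, a −log10 q of 5.81 and a summit pileup of 16 reads. The widest (chr17:29100256-29101292, 1037 bp) crossed the lower end of the gene, with a fold of 6.08, a −log10 q of 13.5 and 28 reads. In between, within the span, lay chr17:29095994-29096110, chr17:29097722-29097918, chr17:29098311-29098433 and chr17:29098984-29099239, with −log10 q values of 6.29, 2.90, 2.79 and 7.36. Past the gene lay chr17:29103938-29104066, chr17:29104757-29104903 and chr17:29108074-29108202, with 5.95, 7.09 and 3.85. So 6 of the 9 lay in the span and 3 downstream, and none upstream. All were of modest strength, below the OE list's median −log10 q of 14.6, and their median of 5.95 was close to the 5.05 of all OE peaks that mi8 lacked. Exon positions were not used here, so none was assigned to an exon or intron.

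The strong peaks in the flanks of Cdkn1a were present in all 4 lists, and some weaker ones were not. A peak upstream of Cdkn1a, at the end of the Trp53cor1 span that faces it, the gene of the long noncoding RNA lincRNA-p21, and 12.0 kb from the first start, had a −log10 q of 52.2 in mi8, 41.7 in OE, 45.2 in LMP8 and 47.3 in HP109. Downstream, a peak 20.6 kb from the start had 61.5, 39.2, 33.2 and 62.7, and the one at the lower end of the Rab44 span had 54.1, 32.9, 30.6 and 55.2. At these 3 sites, and 8.9 kb upstream (24.3 in mi8 and 20.9 in OE), the OE value was below that of mi8. At the first start (7.53 in mi8 and 10.4 in OE) and at the second it was above. Such values depend on depth, so these are descriptions only and no difference between lists was tested. At 10.1 kb upstream the values were 11.0, 23.7, 13.6 and 12.7, with OE the highest. The regions 14.6 and 12.6 kb upstream were present in mi8 (10.1 and 4.92) and HP109 (4.58 and 3.89) and in neither OE nor LMP8. Of 18 merged regions at Cdkn1a, 7 were in all 4 lists, 9 in OE alone and 2 in mi8 and HP109. Among all 194768 merged regions of the 4 lists, 47.1% were in all 4, 1.28% in OE alone and 7.86% in mi8 and HP109 alone; nothing is read from the OE count, for which the gene was chosen.

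**Figure D3:**
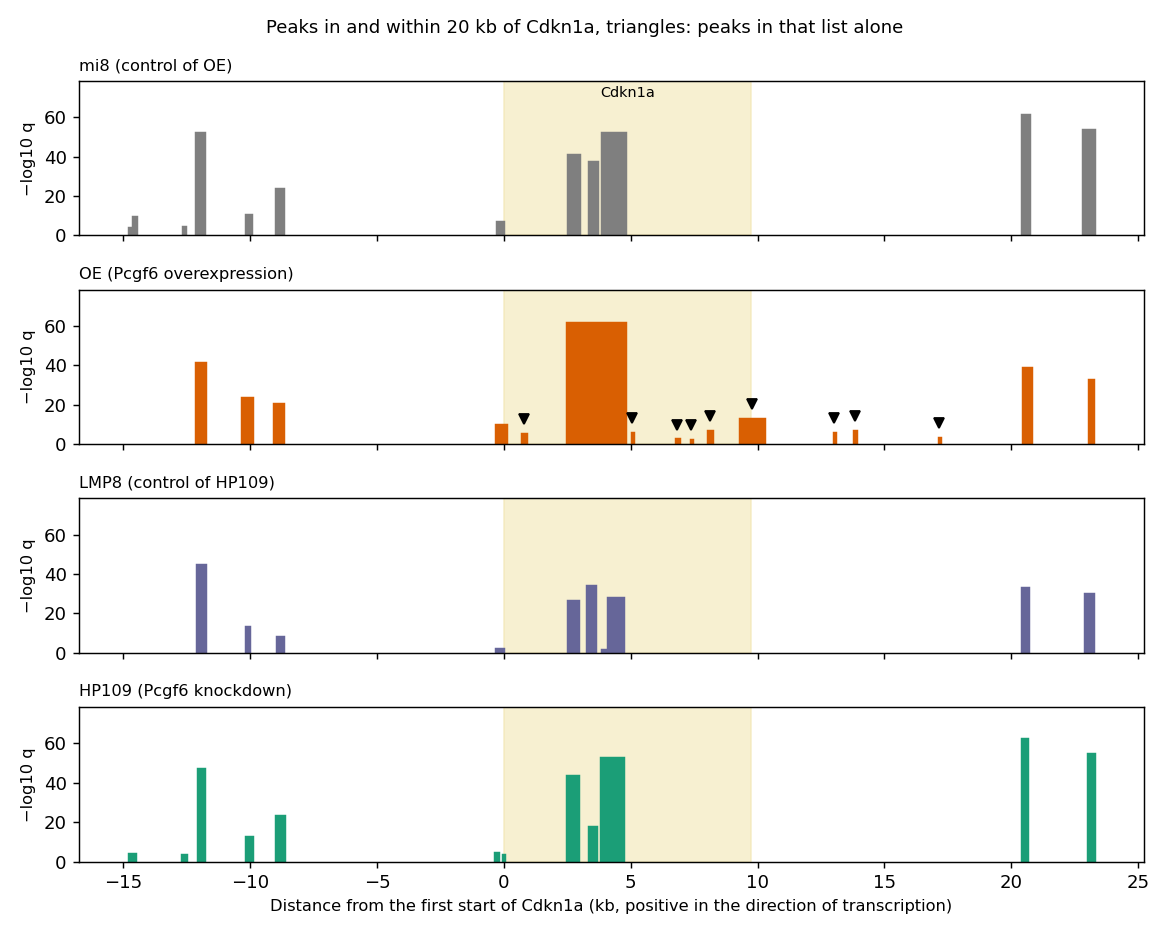
Peaks around Cdkn1a in the 4 lists, drawn to scale against distance from the first start in kb, with −log10 q as the height; shading marks the gene and triangles mark peaks found in that list alone. The 9 triangles are all in OE, 6 of them over the gene, while the peaks outside the gene at about −12 kb and +20.6 kb appear in every list.

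Cdkn1b (chr6:134920401-134925525, + strand) encodes p27, which holds resting cells out of the cycle. Its strong sites were present throughout: the peak 2.59 kb after its start had a −log10 q of 59.5 in mi8, 35.2 in OE, 36.5 in LMP8 and 61.9 in HP109. The start of Lockd, a long noncoding RNA gene downstream, had 95.9, 102.9, 57.5 and 122.6, so in each list it matched or exceeded the Cdkn1b start itself. Of 14 regions, 6 were in all 4 lists. HP109 alone had 3 (6.63, 6.86 and 3.89) and LMP8 alone had 1 (8.27), and OE alone had none. Taken over all merged regions, 47.1% were in all 4 lists, 8.49% in HP109 alone, 2.3% in LMP8 alone and 1.28% in OE alone.

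Cdkn1c (chr7:143458339-143461059; strand not in the table used) encodes p57, an imprinted inhibitor expressed from the maternal copy. It had the smallest share of common regions, with 3 of 14 in all 4 lists, against 47.1% of all merged regions. These were its upper end, with a −log10 q of 40.1 in mi8, 22.6 in OE, 39.0 in LMP8 and 39.4 in HP109; a region 9.1 kb beyond that end, with 25.1, 11.7, 20.4 and 23.6; and the start of Slc22a18, with 67.5, 44.9, 29.9 and 76.1. Another 3 regions were in every list but OE, at 11.3 kb below the upper end, past the lower end of the gene (13.7, 8.68 and 13.8 in mi8, LMP8 and HP109), and at 2.4 kb (14.1, 7.39 and 8.73) and 4.1 kb (14.7, 6.06 and 7.58) beyond it. The last 2 lie in Gm33663, a long noncoding RNA gene. Regions in every list but OE made up 14% of all merged regions. In all, 6 of 11 mi8 peaks here had no counterpart in OE (54.5%, exact interval 23.4 to 83.3, against 40.2% of all mi8 peaks), and 6 of 12 in HP109 had none in LMP8 (50%, interval 21.1 to 78.9, against 23.9% of all HP109 peaks). Both intervals hold the share of the whole list.

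Cdkn2a (chr4:89274473-89294619, − strand), with starts for Arf and p16, and Cdkn2b (chr4:89306289-89311032, − strand), which encodes p15, share 1 stretch of chromosome 4. The Arf start had a −log10 q of 45.3 in mi8, 24.0 in OE, 28.3 in LMP8 and 48.0 in HP109, with summit pileups of 47, 31, 31 and 44 reads. In mi8, LMP8 and HP109 it was 1 interval of 1404, 1234 and 1374 bp. In OE it was broken into 3, none of which covered the start base. At the p16 start the values were 11.3, 2.37, 6.90 and 7.81, and the OE peak stood at percentile 1.31 of its list. The Cdkn2b start had 69.8, 64.4, 40.7 and 73.1. Thus in every list Cdkn2b had the strongest start of the pair, the Arf start the next and the p16 start the weakest.

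The Cdkn2a window held 18 HP109 peaks, 8 more than LMP8, and those that LMP8 lacked were weak. Of its 20 regions, 8 were in all 4 lists, 7 in HP109 alone, 2 in mi8 alone (4.92 and 3.69) and none in OE alone. The shares of all merged regions were 47.1% in all 4, 8.49% in HP109 alone, 9.89% in mi8 alone and 1.28% in OE alone. The 7 in HP109 alone were spread over the window. Beyond the lower end of Cdkn2a lay chr4:89257952-89258079 (−log10 q 8.79) and chr4:89270620-89270781 (9.80), and within the gene chr4:89274946-89275041 (3.38), chr4:89275181-89275276 (2.27) and chr4:89288167-89288290 (4.77). Between Cdkn2a and Cdkn2b lay chr4:89305073-89305177 (6.63), and beyond the Cdkn2b start chr4:89313603-89313707 (4.77). Their summit pileups ran from 9 to 16 reads. A shared region 28.8 kb from the Arf start, below the gene, had 25.8, 20.5, 23.2 and 49.5 in the 4 lists, the highest in HP109. In mi8, the control that has no part in the knockdown, 12 peaks lay in the window.

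**Figure D4:**
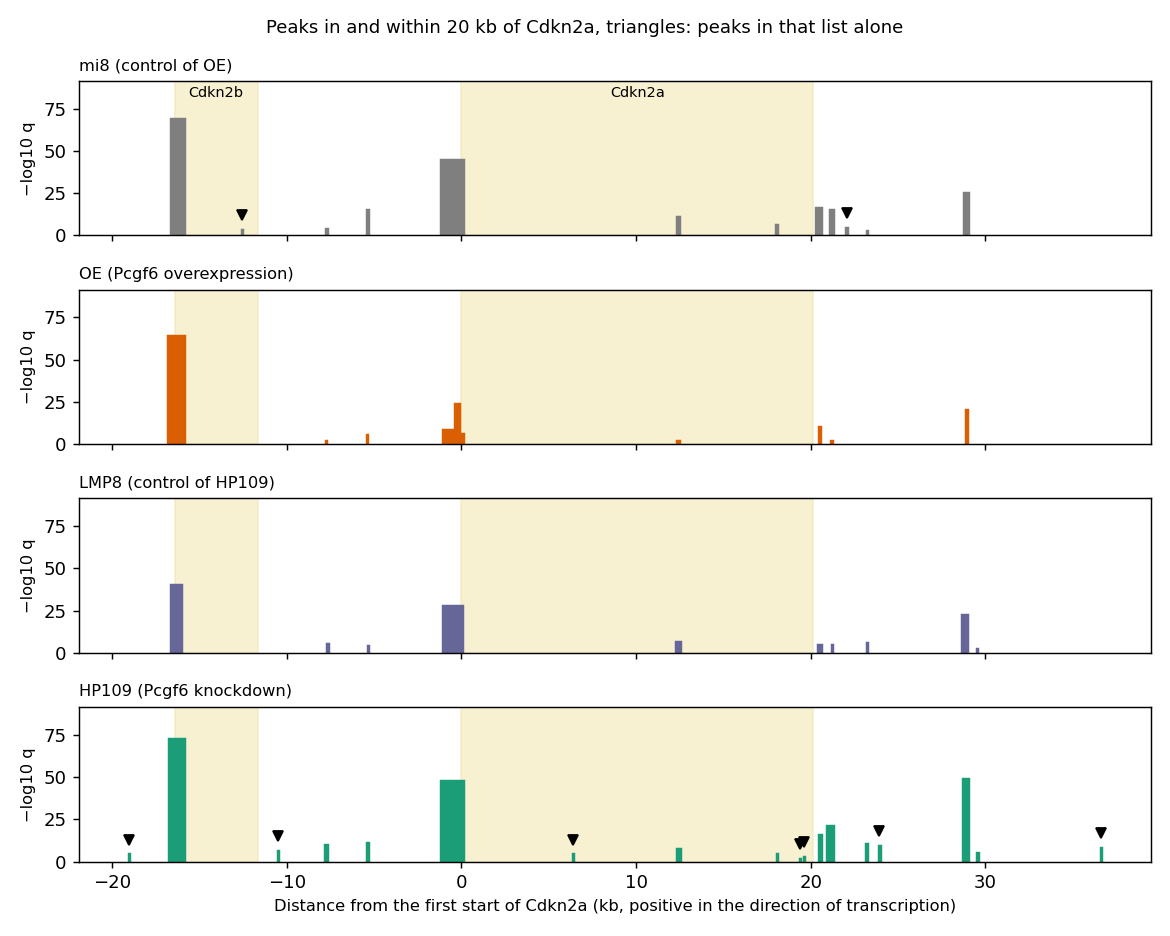
Peaks around Cdkn2a and Cdkn2b in the 4 lists, drawn to scale against distance from the Arf start in kb, with −log10 q as the height; shading marks the genes and triangles mark peaks found in that list alone. Of the 9 triangles 7 are in HP109, all under a −log10 q of 10, and the strongest bars, at the Cdkn2b and Arf starts, are in all 4 lists.

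Cdkn2c (chr4:109660876-109666756, − strand) encodes p18, and its surroundings were nearly the same in all lists, with 7 of 9 regions in all 4. Its first start had a −log10 q of 74.3 in mi8, 61.1 in OE, 53.7 in LMP8 and 86.4 in HP109. One peak of more than 2 kb spanned both starts in mi8, OE and LMP8, and HP109 split it into 2. The start of Faf1, a neighbouring gene, had 75.8, 87.8, 61.9 and 47.3. HP109 alone had 1 region (10.8), and 1 was missing from OE only (10.5, 5.79 and 5.93 in mi8, LMP8 and HP109). For all merged regions the shares were 47.1% in all 4 lists, 8.49% in HP109 alone and 14% missing from OE only.

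Cdkn2d (chr9:21288459-21291421, − strand) sits in a dense stretch of genes, and 5 of its 7 regions were in all 4 lists. The start of Kri1, 0.49 kb away, which encodes a factor of ribosome assembly, had a −log10 q of 93.9, 119.0, 58.1 and 138.6 in mi8, OE, LMP8 and HP109. The remaining 2 regions were missing from OE only. One lay inside Cdkn2d (15.5, 7.65 and 11.9 in mi8, LMP8 and HP109) and one 6.2 kb upstream of its start (12.2, 4.02 and 9.08). Merged regions as a whole were in all 4 lists for 47.1% and missing from OE only for 14%.

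Overexpression was set against mi8 to see which sites differ when Pcgf6 is raised. Of the 52 OE peaks at the 7 genes, 9 had no counterpart in mi8 (17.3%, exact 95% interval 8.23 to 30.3), against 4.57% of all OE peaks. All 9 were at Cdkn1a, which had been chosen for them (9 of 16 OE peaks). At the other 6 genes 0 of 36 OE peaks were without a counterpart, a count that allows a share of up to 8.33% by the limit of 3 counts and 9.74% by the exact interval. Restricted to OE peaks with a −log10 q under 15, with the lists as deposited, the same 9 remained, of 33 (27.3%), where the whole list had 8.82%. Over all 21887 genes, 35 (0.16%) had 9 or more OE peaks without a mi8 counterpart, Cdkn1a included, and 4093 (18.7%) had at least 1. Since these peaks led to the choice of the gene, nothing is read from its share or place. The same holds for the shares of the 7 genes that include it, among all peaks or weak ones.

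In the opposite direction 19 of 62 mi8 peaks were missing from OE (30.6%, interval 19.6 to 43.7), against 40.2% of all mi8 peaks. They came from every gene: 3 of 12 at Cdkn1a, 2 of 11 at Cdkn1b, 6 of 11 at Cdkn1c, 4 of 12 at Cdkn2a, 1 of 5 at Cdkn2b, 2 of 9 at Cdkn2c and 2 of 7 at Cdkn2d. The interval covers the background share, so a difference between the 7 genes and the whole list was not detectable at this number of peaks. Among peaks with a −log10 q under 15 the shares were 18 of 29 (62.1%) at these genes and 69.8% in the list. Intervals here and below cover counting error only.

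The knockdown was set against LMP8 to see which sites differ when Pcgf6 is lowered. Of 73 HP109 peaks, 21 had no counterpart in LMP8 (28.8%, interval 18.8 to 40.6), against 23.9% of all HP109 peaks. Cdkn2a had 8 of 18 (44.4%, interval 21.5 to 69.2) and Cdkn1c 6 of 12 (50%), while Cdkn1b had 4 of 13, Cdkn2b 3 of 7, Cdkn1a 2 of 12, Cdkn2c 1 of 11 and Cdkn2d 0 of 7. Among weak peaks, with a −log10 q under 15, the share was 8 of 13 at Cdkn2a (61.5%, interval 31.6 to 86.1) and 45.4% over the list. Counting peaks of any strength, 1004 of all genes (4.59%) had 8 or more HP109 peaks without a counterpart in LMP8. Cdkn2a held 18 HP109 peaks where the median of all genes was 8, and a gene with more peaks has more that can be absent. The interval for Cdkn2a holds the background among weak peaks and among all peaks, so the excess there was within counting error. In reverse, 2 of 54 LMP8 peaks were missing from HP109 (3.70%, interval 0.452 to 12.7), against 8.06%.

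The controls differ from each other with no Pcgf6 vector in either, and give a measure of what 2 lists can differ by. Of 54 LMP8 peaks at the 7 genes, 3 were missing from mi8 (5.56%, interval 1.16 to 15.4), against 5.98% of all. Of 62 mi8 peaks, 13 were missing from LMP8 (21.0%, interval 11.7 to 33.2), against 24.9%. Cdkn1c had 5 of these 13, out of 11 peaks, and Cdkn1a 3 out of 12. Both shares lay near their background. The share of HP109 peaks missing from LMP8, 28.8%, and of mi8 peaks missing from LMP8 have the LMP8 list in common.

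**Figure D5:**
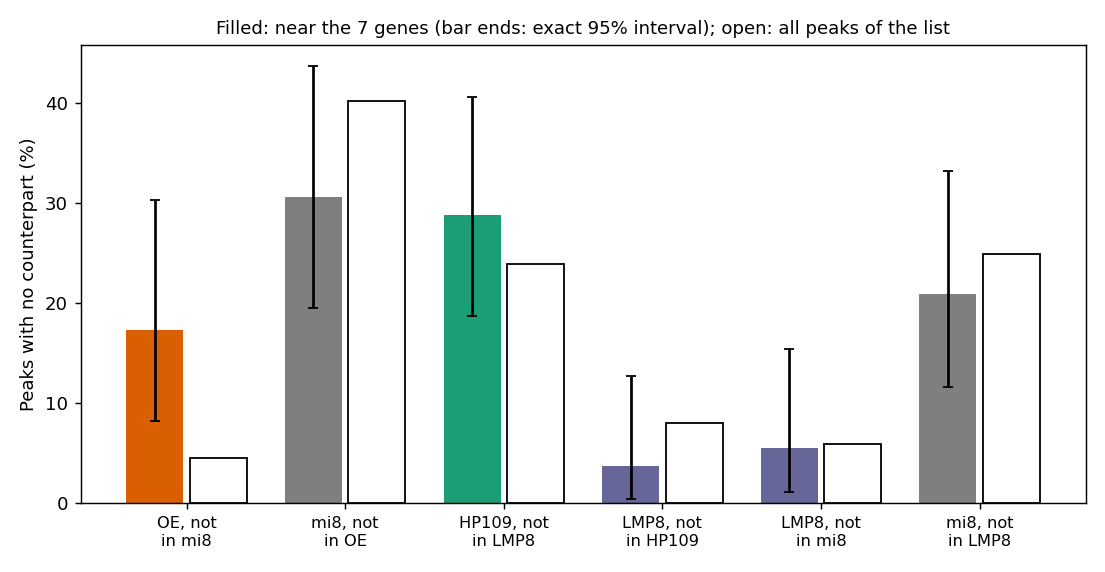
Share of peaks with no counterpart in the other list, in percent, for the 6 ordered pairs of lists: filled bars are the 7 genes with exact 95% intervals for counting error, open bars are all peaks of the list. In 5 pairs the interval spans the open bar. In the first pair, OE without mi8 (17.3% and 4.57%), all the absent peaks are the 9 at Cdkn1a. That gene was chosen for those peaks, so nothing is read from this pair.

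Merging the peaks of the 4 lists gave 82 regions around the 7 genes. Of these 36 (43.9%) were in all 4 lists, near the 47.1% of all merged regions. Regions in a single list numbered 13 in HP109 (15.9%, against 8.49% of all), 9 in OE (11.0%, against 1.28%), 3 in mi8 (3.66%, against 9.89%) and 2 in LMP8 (2.44%, against 2.3%). OE was the only list missing from 9 regions (11.0%, against 14%), LMP8 the only one missing from 3 (3.66%, against 2.84%), and 5 were in mi8 and HP109 alone (6.10%, against 7.86%). The 13 regions in HP109 alone were at Cdkn2a and Cdkn2b (7), Cdkn1b (3), Cdkn1c (2) and Cdkn2c (1). The 9 in OE alone were all at Cdkn1a, which was chosen for them, so nothing is read from their share.

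Other genes of the cycle were examined by a list of 29: cyclins, their kinases, retinoblastoma proteins, E2F factors, and regulators such as Trp53, Mdm2, Myc and Skp2. All 29 had a start peak in all 4 lists, as the 7 inhibitors did and as 57.3% of all genes did. At least 1 OE peak absent from mi8 stood near 13 of the 29, against 18.7% of all genes. These are not like for like: the 29 genes held 363 OE peaks in total, from 3 at Ccna2 to 40 at Mdm2. The median per gene over all genes was 5. A gene with more peaks has more that can be absent. Mdm2, which encodes the ubiquitin ligase that degrades p53, had 20 of its 40 OE peaks absent from mi8, 9 of them in its span, and its counts in mi8, OE, LMP8 and HP109 were 39, 40, 35 and 43. The next were Rb1, which encodes the retinoblastoma protein, with 5, its relative Rbl2 with 3, and Rbl1 and the repressor E2f6 with 2 each. Over the list 40 of 363 OE peaks (11.0%) were absent from mi8, and without Mdm2 20 of 323 (6.19%), beside 4.57% of all OE peaks. In the other comparisons 136 of 442 mi8 peaks (30.8%) were absent from OE and 87 of 463 HP109 peaks (18.8%) from LMP8, beside 40.2% and 23.9% of the whole lists.

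The genes whose peak numbers in the 4 lists lay nearest those of Cdkn1a, by Euclidean distance over the 4 numbers among 21887 genes, were Dohh (13, 17, 11 and 12 in mi8, OE, LMP8 and HP109, distance 1.73), Rpl41 (2.24), Cep97 (2.45), Plekhn1 (2.65) and Zc3h10 (2.65). The likeness rests on numbers alone: OE peaks absent from mi8 numbered 8 at Dohh, 3 at Rpl41, 1 at Cep97, 0 at Plekhn1 and 3 at Zc3h10, against 9 at Cdkn1a. Of these 5 genes, Dohh was the nearest to Cdkn1a in this respect too. The distance itself uses the OE number, for which Cdkn1a was chosen, so nothing is read from this likeness. Rpl41 and Zc3h10 are neighbours with overlapping windows and are not separate cases.

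The limit of 20 kb left out some peaks stronger than the outermost ones it kept. At Cdkn1a the farthest HP109 peak inside lay 14.5 kb out with a −log10 q of 4.58, and the nearest outside lay 20.1 kb out with 18.9. At Cdkn1c the farthest mi8 peak inside lay 19.6 kb out with 6.76 and the nearest outside 34.2 kb out with 4.52. At Cdkn2c the farthest mi8 peak inside lay 19.1 kb out with 12.5, and one just outside, at 21.2 kb, had 33.3.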

How the data were processed

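The 9 ATAC-seq libraries comprised 1 input and a pair for each of 4 vectors. The submitters' processing notes name BWA, Picard, MACS2 and mm10. Not given in the sources used here are their versions and settings and the way libraries were pooled. Per the labels, 1 list was deposited for both libraries of a vector, called against the input, and its name includes "downsample". The deposited score is the −log10 q multiplied by 10 and cut to an integer. The fold ratio, −log10 p and −log10 q are as the authors deposited them.

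Read totals are unknown. Summit pileups were recovered from the deposited fold, taken as (pileup + 1) over (background + 1), and the −log10 p, taken as a Poisson tail: 100% of peaks matched a whole number within 0.001. Only autosomes 1 to 19 and chromosomes X and Y were used. A peak overlapping none of another list by 1 bp was called absent. Shares carry exact (Clopper-Pearson) 95% intervals, and the upper limit beside a count of 0 is 3 counts. Both cover counting error only. Promoter and gene positions came from RefSeq GRCm38.p6. Overlap and pileup code was tested on simulated data. Python 3.11.15, pandas 2.3.3, numpy 2.4.6 and scipy 1.17.1 were used.

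The 7 genes and the gene lists were chosen with earlier results of these data known. Other genes were named by rule: the 5 cell cycle genes with the most OE peaks absent from mi8, those with a start peak in 1 list of a pair only (there were none), the 5 nearest to Cdkn1a in peak numbers, and neighbours within a window. Alternatives were a −log10 q minimum of 5, equal numbers of peaks per list, 50% reciprocal overlap, windows of 5 and 50 kb, a gap of 200 bp, and start windows of 500 and 2500 bp.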

Additional observations from a re-analysis of the deposited data

How the results depend on the processing

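No paired analysis was possible because each vector had 1 deposited list for both of its libraries, which also left no library to leave out. Of 57 recomputed values, 51 stayed within the counting interval or 1.5 times of the reported one and 6 moved. Requiring 50% reciprocal overlap gave 36.5% for OE peaks absent from mi8 (22.7% of all OE peaks), 46.8% for mi8 peaks absent from OE (49.6%) and 14.8% for LMP8 peaks absent from HP109 (17.2%). With the strongest 111510 peaks of each list, mi8 peaks absent from OE fell to 17.0% (19.4% of all) and LMP8 peaks absent from HP109 rose to 15.9% (13.2% of all). In that setting OE peaks absent from mi8 were 25% (15.1% of all), and some of them lay at genes other than Cdkn1a. Leaving out Cdkn1a with the lists as deposited, an alternative added after seeing the data, gave 0% for OE peaks absent from mi8. At Cdkn1a the share of OE peaks absent from mi8 was 42.9% to 80.0% over its alternatives, the lowest with a 50 kb window and the highest with 5 kb. Read totals are unknown, the lowest background was smaller in LMP8 and HP109 than in mi8 and OE, and what depth did to weak peaks was not tested. Pooled lists give no spread between cultures.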

Other observations

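Genes known as targets of p53 were gathered into a list of 18 after the values of Cdkn1a and Mdm2 had been seen, so the list supports nothing. At least 1 OE peak absent from mi8 stood near 10 of the 18, against 4093 of all 21887 genes (18.7%), and Mdm2 alone had 3 or more, beside 318 (1.45%) of all genes. OE peaks per gene ran from 3 at Eda2r and Tnfrsf10b to 40 at Mdm2, where the median of all genes was 5. Over the list 31 of 214 OE peaks (14.5%) were absent from mi8, where the OE list as a whole had 4.57%. Without Mdm2 it was 11 of 174 (6.32%), with at most 2 at any gene, a number reached at Btg2 and Plk2. Bax and Bbc3, which promote cell death, and Sesn2 and Zmat3 had 0.

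The 35 genes with 9 or more OE peaks absent from mi8 were also listed after their values were seen. Hif1a, the hypoxia factor, led with 28, followed by Slc7a2 with 23, Mdm2 with 20, and Cpm, which neighbours Mdm2 and shares peaks with it, and Vegfa, an angiogenic growth factor, with 19 each. Cdkn1a, with 9, was the single cyclin-dependent kinase inhibitor among them. Btg1, a gene that restrains proliferation, also had 9, and its peak numbers in mi8, OE, LMP8 and HP109 were 31, 30, 29 and 30.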
